A study of Mus musculus with 8 samples.

Results

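Interferon-stimulated genes, a set of 34 named transcripts, were followed in cultured muscle satellite cells with and without Dnmt3a. The members were taken by name: every non-control spot whose gene name in the array files is one of the 34 was used, and all 34 had at least 1 probe, 41 probes in all. They are 34 of 31732 genes with a probe on the array. The rule itself uses names and no measured value. A total of 23 members were well above background on at least 4 of the 8 arrays and entered the tests, beside 19687 genes tested in all.

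Interferons are secreted signalling proteins that cells release on sensing viral nucleic acid. Type I interferon binds a receptor made of Ifnar1 and Ifnar2, and the kinases Jak1 and Tyk2 then activate a transcription factor complex that holds Stat2 and Irf9 and binds the interferon-stimulated response element in the promoters of target genes. Interferon gamma acts through its own receptor and on another promoter motif, the gamma-activated site. In resting cells many of these genes keep a low basal level.

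The satellite cells came from the EDL (extensor digitorum longus), a muscle of the lower leg, of Dnmt3a-KO mice and of WT littermates, described in the labels as male and 8 weeks old. Dnmt3a encodes a de novo DNA methyltransferase. Both genotypes were grown for 5 days in growth medium, replated at matched cell number and moved to differentiation medium, in which the progeny of satellite cells fuse into myotubes. RNA was hybridised to one-colour Agilent arrays on days 2, 4, 5 and 6, with 1 WT and 1 Dnmt3a-KO array per day. The 4 WT groups therefore share wild-type cells at 4 times and the 4 Dnmt3a-KO groups share the deletion, and no agent such as interferon or a virus is named. The labels name neither the Cre line or allele behind the deletion nor how many mice or cultures an array represents. P-values below therefore measure the spread between days or arrays, which may be technical.

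Several features of the arrays bear on every result. Between 61.6% and 67.4% of spots were well above background, with a 75th percentile of 719.5 to 1528.1 intensity units. Both day 2 arrays lay on a slide of their own, were read on another scanner model and were extracted with another software version than the other 6 arrays. Files of days 4 to 6 held 4775 to 5797 spots at or below 0 and those of day 2 held 0, so values close to background were not formed alike. The Y-linked gene Eif2s3y stood at 378% and 341% of the 75th percentile on the WT and Dnmt3a-KO arrays of day 2 and was not well above background on any of the 6 later arrays. Xist, the RNA of the inactive X chromosome, had the opposite pattern, so the 6 later arrays go against the label male. Genotype was balanced within every day, and day 2 cannot be told apart from its slide, scanner, software and these sex-linked transcripts. Dnmt3a signal in Dnmt3a-KO arrays was 46.2%, 19.8%, 21.7% and 19.1% of WT on days 2, 4, 5 and 6.

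Cell type markers were read as summed scaled signal, in percent of each array's 75th percentile. The satellite cell and myoblast list had 7 of 8 genes well above background on all 8 arrays, with Myf5 on none, and summed to 14420 to 21500% in WT and 14780 to 22060% in Dnmt3a-KO. Of 15 measured markers of macrophages and leukocytes, which respond strongly to interferon, 8 were well above background on all 8 arrays. Another 5, Cd68, Cd52, Lyz2, Tyrobp and Aif1, were well above background on no array. That list summed to 1076 to 2181% in WT and 935 to 2246% in Dnmt3a-KO, most of it from Itgam. Of the 10 fibroblast and fibro-adipogenic markers 6 were well above background on all 8 arrays and Lum on none. The 10 summed to 3146, 6244, 9502 and 6003% in WT on days 2, 4, 5 and 6, and to 8127, 1939, 10030 and 3138% in Dnmt3a-KO. Of 6 plasmacytoid dendritic cell markers, the member Bst2 among them, 4 were well above background on all 8 arrays. They summed to 1828 to 2983% in WT and 2012 to 3850% in Dnmt3a-KO. Of 10 endothelial markers 3 were well above background on all 8 arrays and 3 on none. They summed to 324 to 436% in WT and 339 to 421% in Dnmt3a-KO, and markers of differentiated muscle to 41620 to 75810% and 45830 to 74600%. In such bulk samples fewer cells of a type and less RNA per cell cannot be told apart.

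Promoter windows by RefSeq annotation on GRCm38.p6 were at hand for 26 members, each of 300 bases, 250 before and 50 after the annotated start. Each was searched on both strands for the core of the interferon-stimulated response element, GAAANNGAAA, which 14 of the 26 members carried (53.8%), against 3.44% of all 32851 windows and 3.99% of the 27025 genes with a window. At least 2 matches were present in 7 members, against 0.266% of all genes. The core of the gamma-activated site, TTCNNNGAA, was present in 9 of 26 members and in 9.55% of all genes, and it overlapped the first motif in Bst2 and Ifitm3. The stretches below show how the letters lie in some of the members, written 5′ to 3′ on the strand of the gene with the response element core in capitals. In Isg20 the capitals mark the gamma-activated site core. Ifitm3, with the largest mean genotype difference, and Isg20, next to Ifitm3 in mean signal, were set by rule, and Isg15, Ifit1 and Bst2 were added after their values were seen. The added ones all hold the response element core, whereas the window of Xaf1, the member with the steepest rise over days, held no match. They lie on GRCm38.p6 at chr7:141010715-141010864 for Ifitm3 (minus strand), chr7:78913274-78913423 for Isg20 (plus strand), chr4:156200819-156200968 for Isg15 (minus strand), chr19:34640739-34640888 for Ifit1 (plus strand) and chr8:71537473-71537622 for Bst2 (minus strand).
Ifitm3: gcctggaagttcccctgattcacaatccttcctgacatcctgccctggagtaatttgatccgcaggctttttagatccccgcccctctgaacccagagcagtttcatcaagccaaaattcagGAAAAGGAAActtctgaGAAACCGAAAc
Isg20: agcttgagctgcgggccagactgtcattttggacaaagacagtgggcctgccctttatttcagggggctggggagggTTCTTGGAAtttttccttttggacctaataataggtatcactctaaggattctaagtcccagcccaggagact
Isg15: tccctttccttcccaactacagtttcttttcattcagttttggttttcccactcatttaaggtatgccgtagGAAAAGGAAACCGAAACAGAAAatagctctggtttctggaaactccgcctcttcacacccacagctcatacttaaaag
Ifit1: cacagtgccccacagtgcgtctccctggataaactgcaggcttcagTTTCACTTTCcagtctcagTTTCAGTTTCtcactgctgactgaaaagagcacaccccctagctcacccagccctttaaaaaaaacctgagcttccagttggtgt
Bst2: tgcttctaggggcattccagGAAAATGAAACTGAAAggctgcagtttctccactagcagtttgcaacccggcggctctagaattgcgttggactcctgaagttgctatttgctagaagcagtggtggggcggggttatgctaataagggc

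The Ifitm3 stretch runs from 120 bases before the start to 29 bases past it, and both of its matches lie past the start. The other 4 stretches are the 150 bases just before the start. Isg15 has 3 overlapping matches there and Ifit1 has 2 separate ones. A match describes letters only, and a missing one says only that these letters are not in the window. Members with the core were 8 of 15 among those well above background on all 8 arrays and 2 of 3 among those above it on none. The windows of the members held a median of 6 CpG, the dinucleotide that Dnmt3a methylates, against 7 over all windows, and ranged from 1, in Isg20, Ifit3 and Irf9, to 43 in Irf1. Methylation was not measured.

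**Figure D1:**
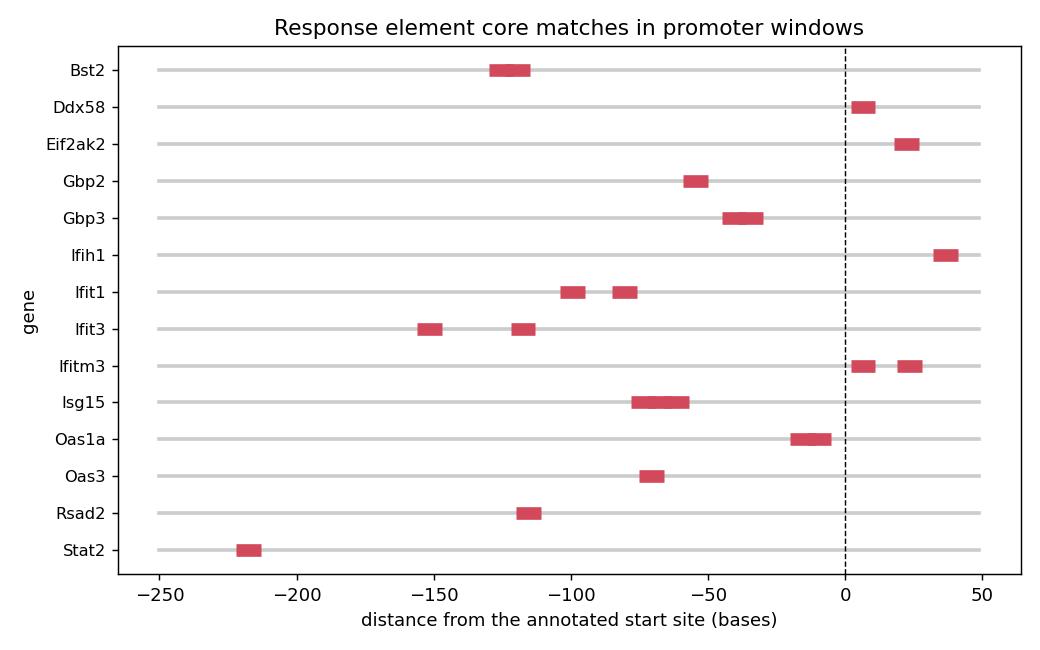
Position of the response element core in the 14 members that carry it, one grey line per 300-base RefSeq window, in bases from the annotated start site (dashed line). Red blocks are matches on either strand, and 3 genes, Ddx58, Ifih1 and Eif2ak2, have their match past the start, as does Ifitm3.

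Signals below are given as percent of the array's 75th percentile, and differences and slopes as log2 values. A signal at the common floor of 0.763% has no order below it. Of the 34 members, 17 were well above background on all 8 arrays, 6 on 4 to 7 arrays, 6 on 1 to 3 arrays and 5 on none. Of all genes, 53.9%, 8.1%, 13.0% and 25.0% fell in these classes. Per array, 21 to 25 members were well above background. The 5 members above background on none were Ifit1, a sensor that binds viral RNA caps, Mx1, a dynamin-like antiviral GTPase, and Oas1a, Oas2 and Oasl2 of the oligoadenylate synthetase family. A probe not well above background gives only a bound and does not show that the transcript is absent.

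The ligands and receptors of the pathway had a probe for 11 genes, of which 6 were tested. Over days 2 of the 6 rose (33.3%, against 25.9% of all genes). For genotype 0 were called, against 0.00508% of all genes called higher and 0.00508% called lower. Interferon beta, Ifnb1, was at the floor on all 8 arrays, and so was Ifnk. Ifna1, Ifna2 and Ifna4, of the interferon alpha family, were well above background on 3, 2 and 1 of 8 arrays, at no more than 3.35%. The type I receptor subunits were measured on every array. Ifnar1 ran from 87.1% to 116% in WT and from 88.2% to 117% in Dnmt3a-KO, and Ifnar2 from 118% to 141% and from 115% to 139%. Ifngr1 and Ifngr2, the interferon gamma receptor, had mean genotype differences of 0.11 and 0.09, and Il10rb, a subunit of the interferon lambda receptor, one of -0.06. Ifngr2 rose over days by 0.28 per day (limma adjusted p = 0.017), with 168% and 183% on day 2 and 355% to 395% later.

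The first comparison asked whether loss of Dnmt3a changed the members over the 4 days. No member passed limma's adjusted p of 0.05 with day as a block (0 of 23), against 0.00508% of all genes called higher and 0.00508% called lower. At an unadjusted p under 0.05 there were 5 members of 23, against 12.9% of all genes. The median difference of the members was -0.07, and that of all genes tested was -0.01. Mean differences ran from -0.43 to 0.55. No tested member averaged a 2-fold change (0 of 23), and among all genes tested 208 of 19687 did. Dnmt3a itself, with a mean difference of -2.01, had an adjusted p of 0.10. In the limma test of a genotype difference that changes with day 0 of 23 members passed, against 0.0% of all genes, and 1 member, Oasl1, had an unadjusted interaction p under 0.05, against 4.18% of all genes.

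**Figure D2:**
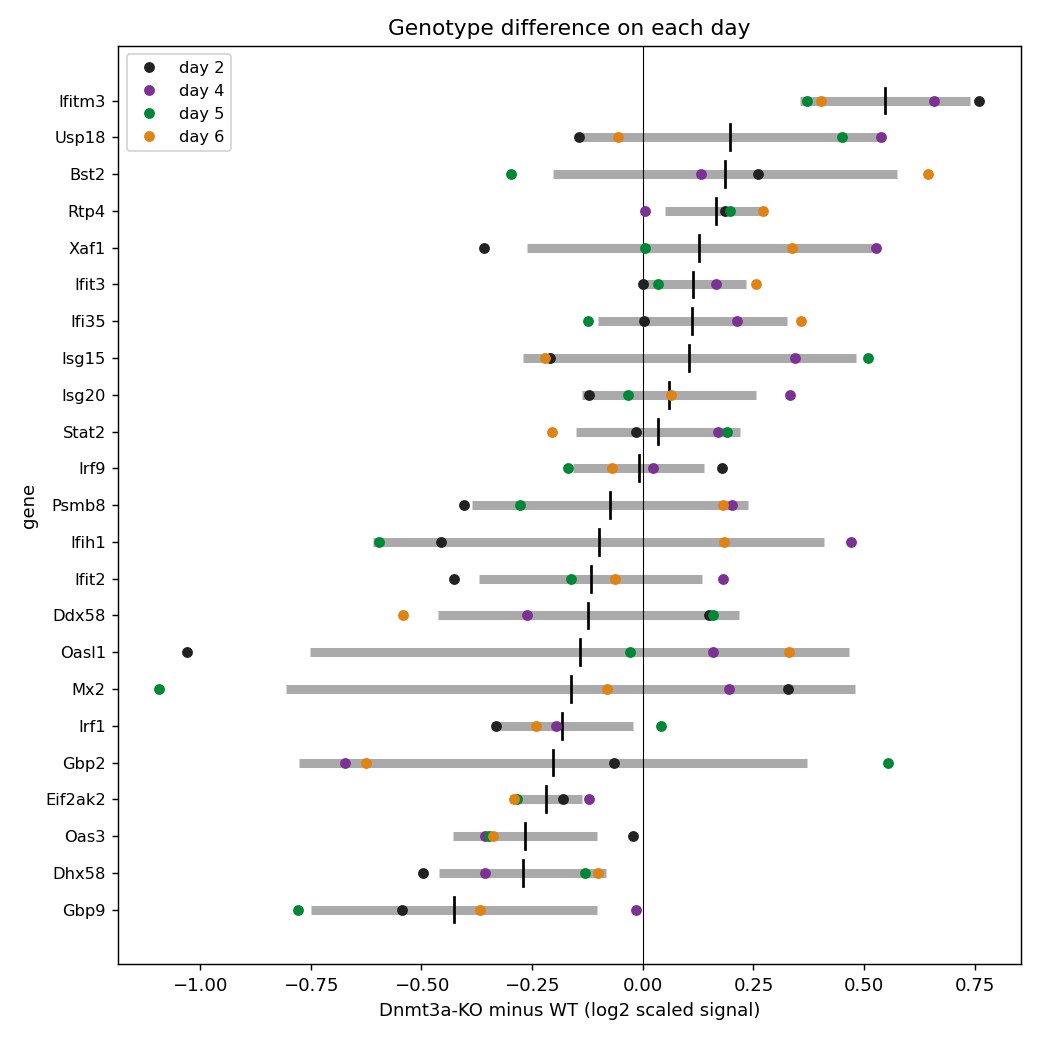
Dnmt3a-KO minus WT on each day for the 23 members tested, in log2 scaled signal. Points are days, black ticks are means and grey bars are ± 1 SD over the 4 days. Ifitm3 lies above 0 on every day, from 0.37 to 0.76, and most other members lie on both sides of 0.

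Among the effectors, Ifitm3 had the largest mean difference. It encodes a membrane protein that blocks the entry of enveloped viruses. In WT cells it stood at 697%, 205%, 269% and 340% on days 2, 4, 5 and 6, and in Dnmt3a-KO cells at 1181%, 323%, 348% and 449%. The Dnmt3a-KO array was the brighter on each day, while the ranges of the genotypes overlapped across days. The difference averaged 0.55 ± 0.19 (SD over 4 days, SE 0.09), a 1.46-fold higher signal, with an unadjusted p of 0.0020 and a limma adjusted p of 0.17. Its probe lies on mm9 chromosome 7 at 148195591 to 148195650. Ifitm1, the neighbouring family member, is in the wider pathway list and averaged 0.71, with 4.26%, 5.61%, 5.02% and 6.95% in WT and 12.7%, 9.66%, 4.18% and 11.8% in Dnmt3a-KO on days 2, 4, 5 and 6. It was the brighter in Dnmt3a-KO on days 2, 4 and 6 and the dimmer on day 5 (limma adjusted p = 0.40). The summed signal of the fibroblast markers, given above by day, was higher in Dnmt3a-KO on days 2 and 5 and lower on days 4 and 6. A sum weighs bright genes most, and the median genotype difference of the 8 tested genes of that list was -0.25. The part of these markers in the Ifitm3 difference was not tested.

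Rtp4, a negative regulator of interferon signalling, also lay above WT on 4 of 4 days, which with Ifitm3 makes 2 of 23 members (8.7%), against 10.9% of all genes. Its signal was 52.7%, 69.6%, 56.5% and 49.9% in WT and 60.0%, 69.8%, 64.8% and 60.2% in Dnmt3a-KO. The mean difference was 0.16 ± 0.11 (SD over 4 days, limma adjusted p = 0.43). Below WT on 4 of 4 days were 4 members, Eif2ak2, Oas3, Dhx58 and Gbp9, or 17.4% of those tested, against 11.5% of all genes. The count takes any sign. Oas3 differed by -0.02 on day 2, with Dnmt3a-KO at the floor and neither array well above background, and Gbp9 by -0.01 on day 4. Eif2ak2 encodes the kinase PKR, which halts translation on binding double-stranded RNA. Its WT signal was 14.4%, 17.4%, 19.8% and 15.9%, and its Dnmt3a-KO signal 12.7%, 16.0%, 16.3% and 13.0%. The mean difference was -0.22 ± 0.08 (SD over 4 days), with an unadjusted p of 0.023 and a limma adjusted p of 0.32.

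Gbp9 encodes a guanylate-binding protein, of a family of GTPases that attack the membranes of intracellular microbes. Its WT signal was 48.9%, 2.89%, 3.27% and 2.43% on days 2, 4, 5 and 6, and its Dnmt3a-KO signal 33.5%, 2.86%, 1.90% and 1.88%. The last 2 Dnmt3a-KO values were not well above background. The mean difference was -0.43 ± 0.32 (SD over 4 days, limma adjusted p = 0.33). The day 5 signal was nominally at least 1.72-fold lower in Dnmt3a-KO, which is the plain ratio of the signals, so a smaller fold is possible. Dhx58, which encodes LGP2, a partner of the RNA sensors, averaged -0.27 ± 0.19 with differences of -0.50, -0.36, -0.13 and -0.10. Oas3, an oligoadenylate synthetase that activates RNase L, averaged -0.27 ± 0.16 and was not well above background on either array of day 2.

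Most of the remaining effectors differed in sign between days. Isg15, a ubiquitin-like protein conjugated to many targets, had WT signals of 13.8%, 11.2%, 11.4% and 16.5% and Dnmt3a-KO signals of 11.9%, 14.2%, 16.2% and 14.2%. It was brighter in Dnmt3a-KO on days 4 and 5 and dimmer on days 2 and 6, with a mean of 0.11 ± 0.38 (SD over 4 days, limma adjusted p = 0.80). Bst2, or tetherin, which holds budding virions at the cell surface, averaged 0.18 ± 0.39 with day differences of 0.26, 0.13, -0.30 and 0.65. Means of the exonuclease gene Isg20, the RNA-binding Ifit2 and Ifit3 and the pro-apoptotic Xaf1 lay between -0.12 and 0.13. Mx2, a relative of Mx1, averaged -0.16 ± 0.64 with a difference of -1.09 on day 5.

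The transcription factors of the pathway were well detected with the exception of Irf7. Stat2 stood at 66.0%, 45.8%, 40.8% and 42.6% in WT and 65.3%, 51.5%, 46.6% and 36.9% in Dnmt3a-KO, and averaged 0.03 ± 0.19 (SD over 4 days). Irf9, its DNA-binding partner, averaged -0.01 ± 0.15, and Irf1, a factor induced mainly by interferon gamma, -0.18 ± 0.16. These 3 factors had limma adjusted p-values of 0.89, 0.97 and 0.45. Irf7, which amplifies type I interferon production, was well above background on 1 array, WT day 5, at 3.29%. Its Dnmt3a-KO signal was below WT on every day, with 1.17%, 1.85%, 3.29% and 1.84% in WT against 0.815%, 1.18%, 2.02% and 1.42%. On day 5 it was nominally at least 1.63-fold lower, which is the plain ratio of these signals, so a smaller fold is possible. On the other days neither array was well above background.

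The other RNA sensors and the regulators had differences of both signs. Ddx58, or RIG-I, which senses viral RNA ends, had differences of 0.15, -0.26, 0.16 and -0.54. Ifih1, or MDA5, a sensor of long double-stranded RNA, had -0.46, 0.47, -0.60 and 0.18. Usp18, a protease that removes Isg15 and damps receptor signalling, averaged 0.20 ± 0.35 and Ifi35 0.11 ± 0.21 (SD over 4 days). Parp14, an ADP-ribosyltransferase, was well above background on day 2 in both genotypes and not on the later arrays. Psmb8, a catalytic subunit of the immunoproteasome, averaged -0.07 ± 0.31. Psmb9, another such subunit, was above WT on each day by 0.04, 0.41, 0.27 and 1.05, but was well above background on 3 of 8 arrays and was not tested.

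Single days had 1 array per genotype and no test, so a difference was counted from 2-fold with the brighter array well above background. On day 2 1 tested member was lower (4.35% of 23), Oasl1, an OAS-like protein without synthetase activity, at 2.76% in WT and 1.35% in Dnmt3a-KO, against 1.14% of all genes. On day 5 Mx2 was lower, at 6.77% and 3.18%, against 1.82% of all genes. No tested member was 2-fold higher on any day, against 1.88%, 1.46%, 0.914% and 1.3% of all genes on days 2, 4, 5 and 6, and none was 2-fold lower on day 4 or 6, against 3.08% and 1.88%. The 11 members too dim for the test gave 4 more differences, in 3 genes (27.3%), where 12.5% of all 12045 untested genes had such a difference on at least 1 day. Each was counted through its brighter array, so the values are a description. Rsad2, or viperin, which makes a chain-terminating nucleotide, was higher in Dnmt3a-KO on day 4, with 0.804% in WT and 2.70% in Dnmt3a-KO. The nominal bound was 2.68-fold. Gbp3 was higher on day 6, at 1.45% and 3.38%, with a nominal bound of 2.33-fold. Ifi44 was higher on day 2 and lower on day 5, with nominal bounds of 2.44-fold and 2.48-fold. On the dim arrays, probes brighter than the level used for the bound were also not well above background, so smaller folds are possible.

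The second comparison followed the members over the days of differentiation in both genotypes. Of the 23 tested, 7 rose (30.4%, against 25.9% of all genes) and 6 fell (26.1%, against 19.4%) by limma's slope over days with genotype as a covariate. Rising were Xaf1, Ifit3, Oas3, Ddx58, Ifit2, Usp18 and Ifi35. Falling were Gbp9, Isg20, Bst2, Irf9, Stat2 and Irf1. The median slope was 0.04 per day for the members and 0.03 for all genes. None of these calls held without the day 2 arrays, when 0 members and 0 of all 19687 genes passed by limma, with 3 members and 8.0% of all genes at an unadjusted p under 0.05. With the slide as a block, an alternative chosen after seeing the data, 0 members and 0 genes passed. Without day 5, 0 members passed, beside 380 genes. With no filter on dim probes the calls of Isg20, Ifit2, Ifit3, Ifi35, Irf1, Oas3 and Bst2 were lost (limma adjusted p = 0.050 to 0.074), and with a floor 4 times higher those of Ifit3, Oas3 and Usp18 were. Without day 4 the call of Bst2 was lost (limma adjusted p = 0.056), and without day 6 those of Isg20 and Irf1 were (limma adjusted p = 0.066 and 0.24).

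**Figure D3:**
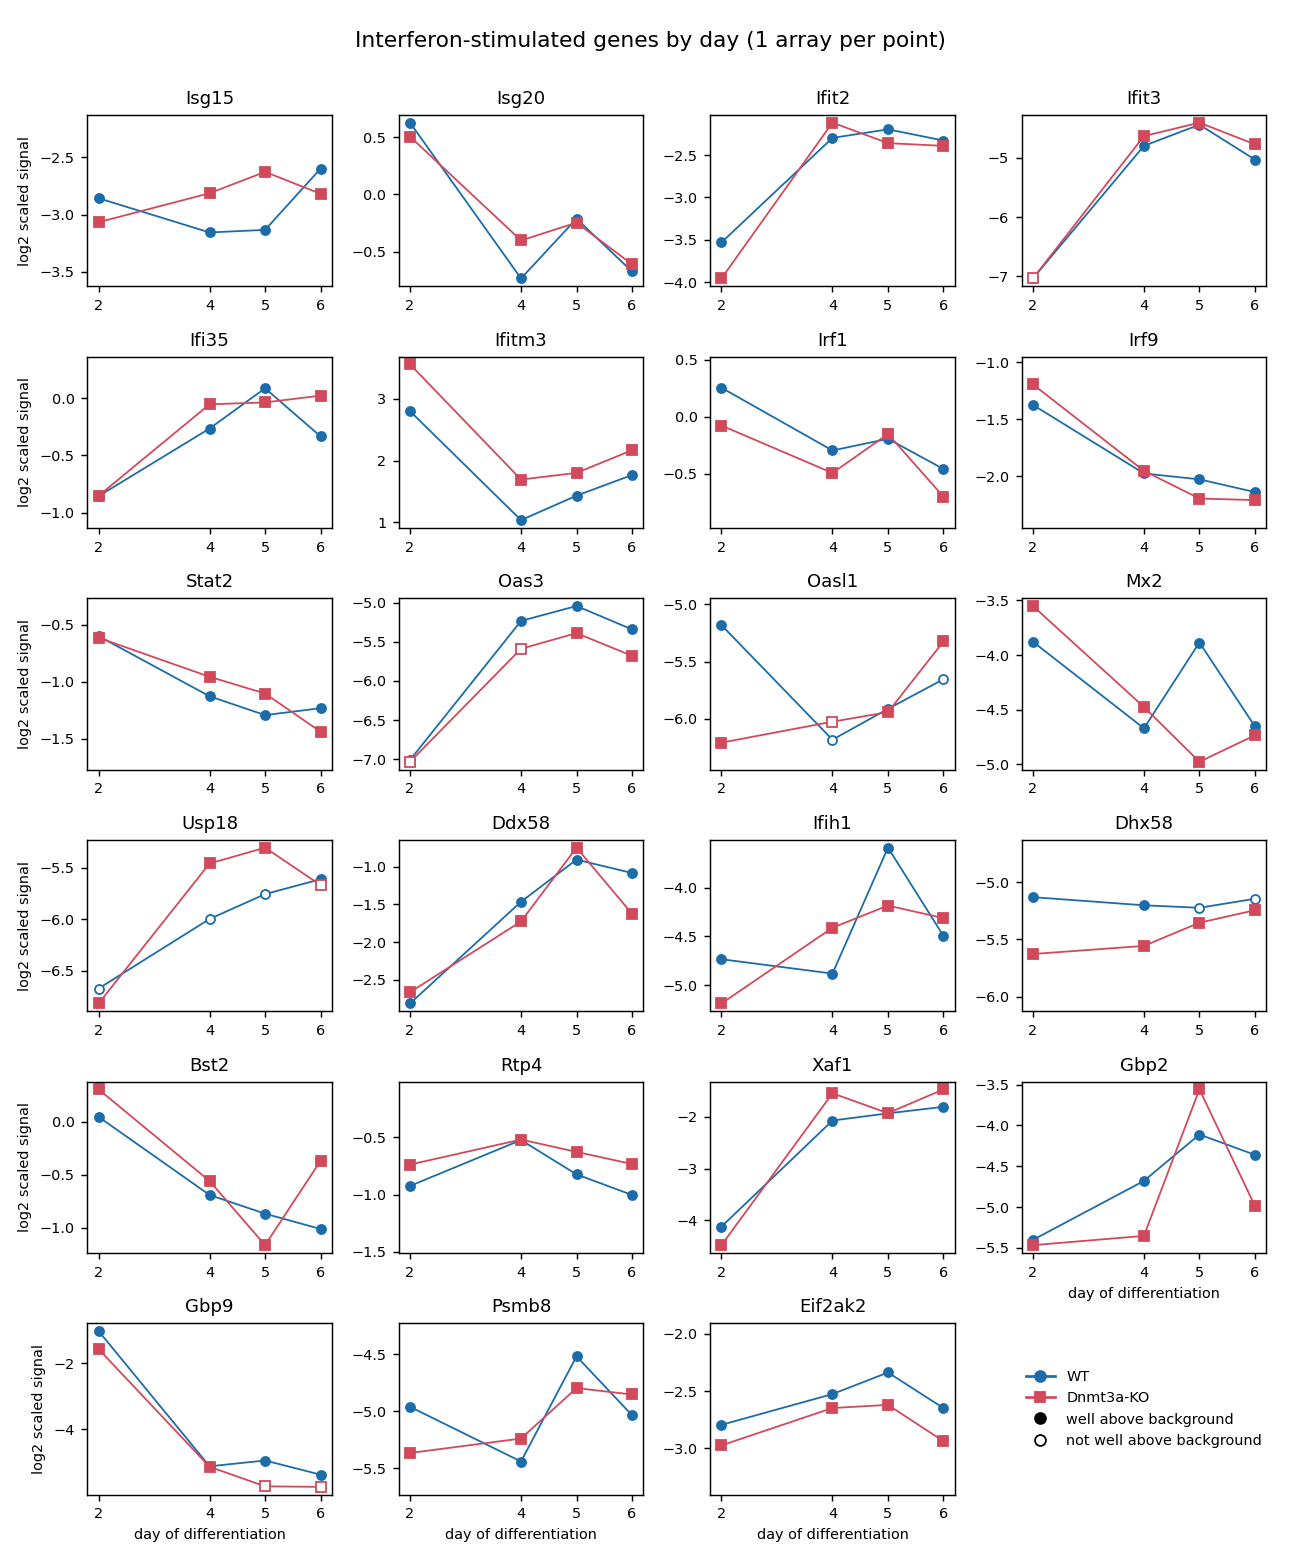
Log2 scaled signal of each tested member against day of differentiation, 1 array per point, in WT (blue circles) and Dnmt3a-KO (red squares), with open symbols for probes not well above background. Each panel has its own vertical scale. Both day 2 arrays lie below all 6 later ones in 8 members (34.8%, against 38.2% of all genes). They lie above them in 8 (34.8%, against 29.7%). Xaf1, Ifit2, Ifit3, Oas3 and Gbp9 are examples.

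**Figure D4:**
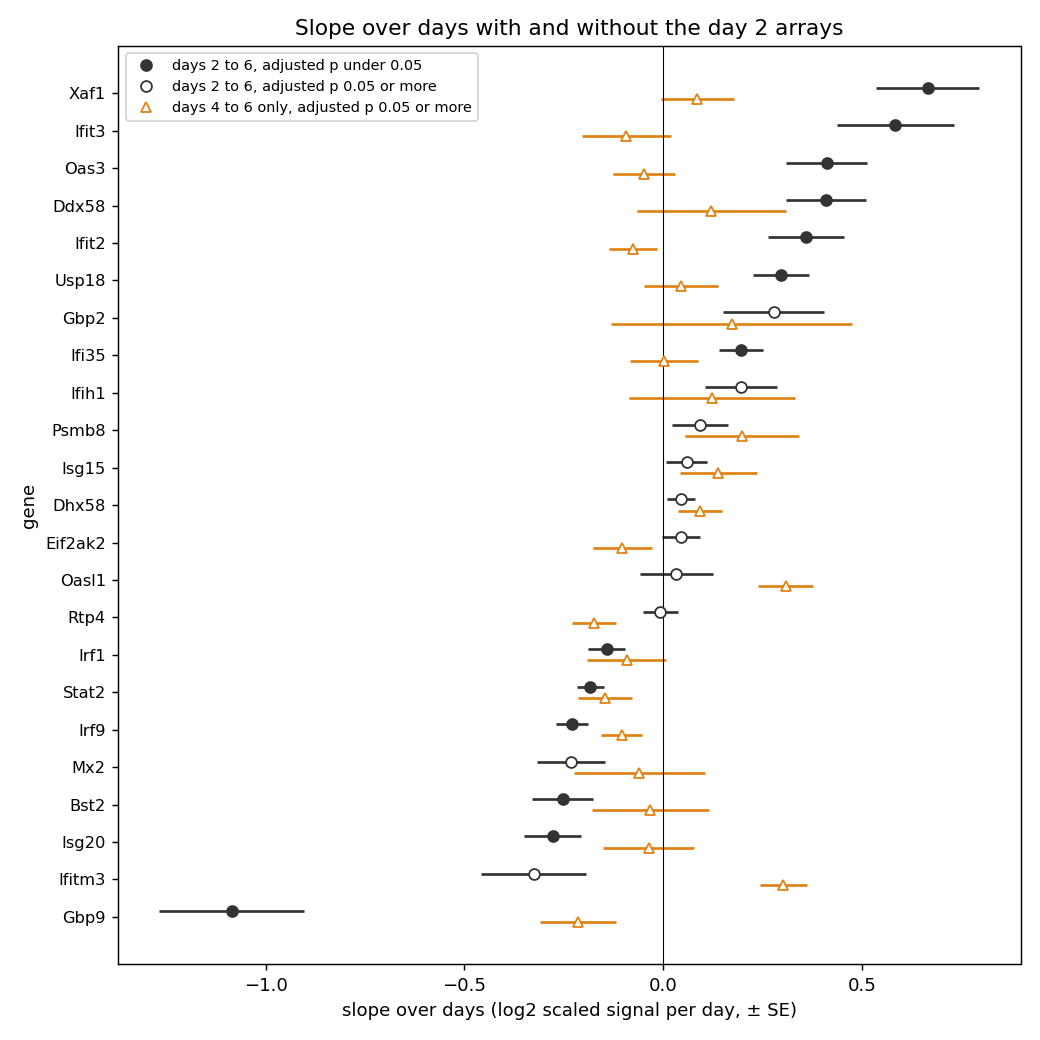
Slope over days ± SE of the 23 members over all 4 days (circles, filled where the limma adjusted p was under 0.05) and over days 4 to 6 only (triangles), in log2 scaled signal per day. Xaf1 moves from 0.67 to 0.09 and Gbp9 from -1.08 to -0.21 when the day 2 arrays are left out.

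The step between day 2 and the later days was described with no test. Both arrays of day 2 lay below all 6 later arrays in 8 members (34.8%, against 38.2% of all genes) and above them in 8 (34.8%, against 29.7%). With a difference of at least 2-fold the counts were 6 (26.1%, against 15.1%) and 3 (13.0%, against 10.4%). Both day 2 arrays differed from the others in slide, scanner, software and sex-linked transcripts, and the part of these in the step was not tested.

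Xaf1, an apoptosis factor that binds the inhibitor XIAP, had the steepest rise. Its WT signal was 5.74%, 23.8%, 26.2% and 28.6% on days 2, 4, 5 and 6, and its Dnmt3a-KO signal 4.48%, 34.3%, 26.3% and 36.2%. All later arrays lay above both arrays of day 2, a 5.70-fold step. The slope was 0.67 ± 0.13 per day (SE, limma adjusted p = 0.013), against 0.09 ± 0.09 without day 2. A second Xaf1 probe was at the floor on both day 2 arrays and at 1.96% to 2.93% later, where it was well above background on 4 of 6 arrays.

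Ifit2 and Ifit3, which bind viral RNA, had a similar course. Ifit2 stood at 8.65%, 20.4%, 21.8% and 19.9% in WT and 6.44%, 23.1%, 19.5% and 19.1% in Dnmt3a-KO, and rose by 0.36 ± 0.10 per day (SE, limma adjusted p = 0.024). Ifit3 was at the floor on both day 2 arrays and well above background on all 6 later ones, at 3.59%, 4.60% and 3.06% in WT and 4.03%, 4.71% and 3.65% in Dnmt3a-KO. That is nominally at least 4.38-fold higher after day 2, and its slope was 0.58 ± 0.15 (SE, limma adjusted p = 0.020). Within days 4 to 6 both slopes were below 0, at -0.08 and -0.09. Oas3 was nominally at least 2.70-fold higher after day 2, with 0.776% and 0.763% on day 2 and 1.95% to 3.03% later.

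Ddx58 rose from 14.2% and 15.8% on day 2 to 30.2% to 59.6% later, with a slope of 0.41 ± 0.10 (SE, limma adjusted p = 0.019). Its highest signals were on day 5 in both genotypes, at 53.4% and 59.6%. A second Ddx58 probe was at the floor on all 8 arrays, so the probes of this gene disagree. Ifi35, a leucine zipper protein, rose by 0.20 ± 0.06 per day (SE, limma adjusted p = 0.029), from 55.3% and 55.4% to 79.4% to 106%. Usp18 rose by 0.30 ± 0.07 (SE, limma adjusted p = 0.018) but was well above background on 4 of 8 arrays, and its call was lost with quantile normalization (limma adjusted p = 0.21).

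Gbp9 had the steepest fall, by 1.08 ± 0.18 per day (SE, limma adjusted p = 0.011). The day 2 arrays, at 48.9% and 33.5%, averaged 16.3-fold above the later ones, all of which lay at or below 3.27%. Gbp2, of the same family, went the other way without a call, from 2.37% and 2.26% on day 2 to 2.45% to 8.49% later (limma adjusted p = 0.11). Gbp4, a further family member in the wider pathway list, fell from 118% and 114% to 4.26% to 10.5% (slope -0.98, limma adjusted p = 0.022). Without day 2 the slope of Gbp9 was -0.21 ± 0.10 (SE, limma adjusted p = 0.65).

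Isg20 stood at 155%, 60.1%, 86.3% and 62.7% in WT and 142%, 75.6%, 84.3% and 65.5% in Dnmt3a-KO. It fell by 0.28 ± 0.07 per day (SE, limma adjusted p = 0.021), and a second probe read 70.2% and 62.5% on day 2 against 20.5% to 31.4% later. Bst2 stood at 103%, 61.9%, 54.8% and 49.6% in WT and 124%, 67.9%, 44.6% and 77.5% in Dnmt3a-KO, and fell by 0.25 ± 0.08 (SE, limma adjusted p = 0.034). The transcription factors of the set that were tested all fell over the 4 days, Irf9 by 0.23 ± 0.04, Stat2 by 0.18 ± 0.03 and Irf1 by 0.14 ± 0.05 (SE, limma adjusted p = 0.012, 0.013 and 0.043). Irf9 stood at 38.6% and 43.7% on day 2 and at 21.7% to 25.9% later. A second Irf1 probe was well above background on 1 array, and the mean of both probes gave Irf1 a slope of 0.06.

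Ifitm3 was brightest on day 2 in both genotypes and its slope did not pass (-0.33 ± 0.13, SE, limma adjusted p = 0.078), whereas it passed with array weights (limma adjusted p = 0.0050), without day 4 (0.023) and without day 6 (0.021). Within days 4 to 6 its signal was ordered by day in both genotypes, at 205%, 269% and 340% in WT and 323%, 348% and 449% in Dnmt3a-KO, with a slope of 0.30 ± 0.06 (SE, limma adjusted p = 0.55). Isg15, Dhx58, Eif2ak2, Psmb8, Rtp4 and Oasl1 had slopes between -0.01 and 0.09 over all 4 days, with limma adjusted p-values of 0.30 to 0.90. Ifih1 at 0.20 ± 0.09 and Gbp2 at 0.28 ± 0.13 (SE) did not pass (limma adjusted p = 0.11 for both). With array weights Ifih1, Gbp2 and Mx2 passed (limma adjusted p = 0.018, 0.017 and 0.031), and without day 6 Gbp2 and Eif2ak2 passed (limma adjusted p = 0.038 and 0.046). Members with the response element core were 3 of the 6 rising genes with a promoter window and 2 of the 5 falling ones.

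In the wider pathway, 99 further genes had a probe and 74 were tested. Of these 0 were called for genotype, against 0.00508% of all genes called higher and 0.00508% called lower. Over days 18 rose (24.3%, against 25.9% of all genes) and 11 fell (14.9%, against 19.4%). At an unadjusted p under 0.05 for genotype there were 13 (17.6%, against 12.9%). The largest mean differences above 0 were those of Cxcl10, Ifitm1 and Ifi204, and the largest below 0 those of Socs1, Mov10 and Zbp1. Cxcl10, a chemokine induced by interferon gamma, was at 0.969%, 5.69%, 6.53% and 7.41% in WT and 0.763%, 22.8%, 10.7% and 12.4% in Dnmt3a-KO. It was the brighter in Dnmt3a-KO on days 4, 5 and 6, with a mean difference of 0.78 (limma adjusted p = 0.45). Ifi204, a DNA sensor, averaged 0.44 and was brighter in Dnmt3a-KO on each day. Socs1, the feedback inhibitor of the receptor kinases, averaged -0.51, with 40.8%, 24.3%, 17.3% and 17.3% in WT and 25.4%, 13.3%, 17.0% and 12.5% in Dnmt3a-KO (limma adjusted p = 0.32). Mov10, an RNA helicase, averaged -0.43, and Zbp1, a sensor of left-handed nucleic acid, averaged -0.41.

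The counts of each list are over its tested genes and stand against 25.9% rising and 19.4% falling over all genes. Among 8 kinases, STATs and feedback genes 3 fell over days (37.5%) and 0 rose, Socs1 among them at -0.28 per day (limma adjusted p = 0.014). Of 13 sensors and adaptors 3 rose (23.1%) and 1 fell (7.69%). Of 14 genes of antigen presentation 8 rose (57.1%) and 2 fell (14.3%), and the major histocompatibility gene H2-K1 rose by 0.32 per day (limma adjusted p = 0.0088). Of 33 other induced genes 5 rose and 5 fell (15.2% each). The steepest slopes over all these lists were those of Cxcl10 (0.87), Irgm2, an immunity-related GTPase (0.83), and Ifng (0.59), and on the other side Gbp4 (-0.98), Helz2, a helicase (-0.41), and Iigp1, another immunity-related GTPase (-0.34). All 6 passed over 4 days, and without day 2 no gene passed. Ifng was at the floor on both day 2 arrays and at 2.36% to 4.22% later, where it was well above background on 5 of 6 arrays.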

How the data were processed

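RNA was measured on 8 arrays of 1 Agilent design. Intensity values of spots came, per the file headers, from Feature Extraction 11.0.1.1 on day 2 and 9.5.3.1 on days 4 to 6, with probe positions on mm9, whereas the submitters' processing notes name version 9.5. The deposited value table holds a score per spot, equal to 100 times the processed signal scaled by the 75th percentile, rounded and with no value below 0. No column lacked a sample (0 columns).

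Processed intensity was divided by the 75th percentile of 43020 non-control spots, floored at 0.00763 (log2 -7.03) and logged. Outlier spots were left out, and 39156 of 39429 probes remained. Of these 25905 matched RefSeq by accession. The probe with the highest mean stood for a gene, and tests took genes with 4 or more of 8 arrays well above background. limma 3.58.1 in R 4.3.3 with Benjamini-Hochberg adjustment fitted the genotype effect with day as a block (3 residual degrees of freedom), the slope over days with genotype as a covariate (5) and their interaction (2). Where no array of a group was well above background, "at least" marks a nominal bound. For it each dim array counted with its own signal or, if larger, with its lowest signal that is well above background. That level is no detection limit. On WT day 4 it was log2 -6.63, and Irf7 at -5.76 was not well above background there. Folds smaller than these bounds are therefore possible.

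All members were named by role, with pathway ligands and receptors and the 3 largest differences and slopes of each sign over the pathway lists. Promoters were set by largest difference of each sign and highest signal where a window was at hand. The members and lists were chosen with earlier results of these data known. The steps were tested on simulated data. Alternatives covered scaling, background correction, the filter, the floor, the fold, the deposited score, the choice of probe, weights on arrays, variance trend, blocks and each day left out.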

Additional observations from a re-analysis of the deposited data

Results flagged for a closer look

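Ifi44, an interferon-induced protein, differed between genotypes in opposite directions on different days. The Dnmt3a-KO minus WT value was 1.64 on day 2, where only the Dnmt3a-KO array was well above background, at 2.39% of the 75th percentile, and -1.81 on day 5, where only the WT array was, at 2.71%. The other 6 arrays lay at or within 0.01% of the floor of 0.763%. The difference between the days was not tested, as Ifi44 was above background on too few arrays.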

How the results depend on the processing

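No member passed for genotype, and none for the interaction, under any alternative run. Ifitm3 kept its direction throughout (0.48 to 0.93), and its lowest limma adjusted p was 0.073. The genotype fit with day as a block pairs the WT and Dnmt3a-KO arrays of a day. Without this block 0 genes passed for genotype by limma.

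Counts that moved were as follows. All genes past the genotype threshold numbered 2, and 0 with quantile scaling, normexp, no filter, the mean over all probes, the higher floor, the deposited score, no day block or without any 1 day. They numbered 75 with normexp capped at 0, 38 with all 8 arrays required, 91 with a trended robust variance, 14 with array weights and 128 with day as a random block. Members rising over days numbered 0 with normexp, without day 2, without day 5 and with the slide as a block, 13 with normexp capped at 0, 4 with all 8 arrays required or the floor 4 times higher and 3 with no filter. Requiring all 8 arrays left 17 members and 17119 genes in the test, and Ifit3, Oas3 and Usp18 were not among them. With no filter 34 members and 31732 genes were tested. Members falling numbered 0 with normexp, without day 2, without day 5 and with the slide as a block. All genes with a slope numbered 8929, and 0 with normexp, without day 2 and with the slide as a block, and 380 without day 5. They numbered 11697 with normexp capped at 0, 8107 with all 8 arrays required, 8116 with the higher floor and 7470 with no filter. Tested members 2-fold apart on days 2, 4, 5 and 6 numbered 1, 0, 1 and 0. At 1.5-fold they numbered 2, 2, 3 and 2, and with normexp 12, 8, 0 and 16. No share of all genes is given beside these counts, so they do not set the members apart. With normexp the median difference of all genes was itself -0.48, -0.28, -0.01 and -0.71 on these days. On day 2 the tested members 2-fold apart numbered 0 with quantile scaling, the higher floor or normexp capped at 0, and on day 5 0 with the last of these. Normexp could not be fitted well, since single spots had signal minus background down to -65520 units, and with it the all-gene median difference of day 6 was -0.71, against 0.02. Its capped form moved the all-gene step after day 2 from 0.09 to 0.25. The capped form and the slide block were added after the data were seen, and the cause of the other changes was not tested.

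The direction of a member turned in 60 of 747 values. With quantile scaling, the genotype difference was 0.015 (Irf9), and the slopes were -0.086 (Oasl1), -0.037 (Dhx58) and 0.002 (Rtp4). With the 75th percentile over detected probes, the genotype difference was 0.0081 (Irf9). With normexp, the genotype differences were -0.92 (Isg15), -0.095 (Isg20), -1.52 (Ifit3), -0.10 (Ifi35), -0.43 (Stat2), -1.54 (Usp18), -0.066 (Bst2), -0.27 (Rtp4) and -0.81 (Xaf1), and the slopes were -0.045 (Isg15), -0.064 (Ifit3), -0.10 (Oas3), -0.10 (Oasl1), -0.10 (Usp18), -0.056 (Ifih1), -0.11 (Dhx58), -0.069 (Gbp2), -0.080 (Psmb8) and -0.039 (Eif2ak2). With normexp capped at 0, the genotype differences were -0.027 (Ifit3), 0.013 (Irf9), -0.040 (Stat2) and -0.018 (Usp18), and the slope was 0.0021 (Rtp4). With the mean over all probes, the genotype difference was -0.0006 (Xaf1), and the slope was 0.058 (Irf1). With the deposited score, the genotype difference was 0.17 (Psmb8). Without day 2, the genotype differences were 0.15 (Oasl1), 0.020 (Ifih1) and 0.035 (Psmb8), and the slopes were -0.076 (Ifit2), -0.093 (Ifit3), 0.30 (Ifitm3), -0.050 (Oas3) and -0.10 (Eif2ak2). Without day 4, the genotype differences were -0.031 (Isg20), -0.011 (Stat2) and -0.0055 (Xaf1), and the slope was 0.001 (Rtp4). Without day 5, the genotype differences were -0.029 (Isg15), 0.044 (Irf9), -0.017 (Stat2), 0.15 (Mx2) and 0.066 (Ifih1). Without day 6, the genotype differences were 0.011 (Irf9) and 0.016 (Ddx58), and the slopes were -0.10 (Oasl1) and 0.052 (Rtp4). With array weights, the slope was 0.016 (Rtp4). With the slide as a block, the slopes were 0.34 (Isg20), -0.071 (Ifit2), 0.25 (Ifitm3), 0.22 (Irf1), 0.14 (Mx2) and -0.12 (Xaf1). With the higher floor, Oas3, Usp18, Oasl1 and Dhx58 had slopes and genotype differences of 0, since all their signals lay under it. The number of arrays and signals near background limit all values, most of all those of members above background on few arrays.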

Other observations

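In 5 of the 7 members with a second probe the probes were well above background on different numbers of arrays. Ddx58 and Ifih1 were well above background on all 8 arrays by one probe and at the floor on all 8 by the other, and Isg15 and Irf1 were above background on all 8 by one and on 1 by the other, while Xaf1 was on all 8 by one and on 4 by the other. Both probes of Isg20 were above background on all 8. Both probes of Oas1a were above background on none. Members of the Ifit, Oas and Gbp families have close relatives, and whether their probes read more than 1 of them was not tested.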
